A study of Mus musculus with 4 samples.

Results

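A group of genes that brakes mitogen-activated protein (MAP) kinase signalling was followed by name through 4 RNA-seq libraries of mouse induced regulatory T cells. Its members were the dual-specificity phosphatase genes Dusp1, Dusp2, Dusp4, Dusp5, Dusp6, Dusp10 and Dusp16, and the Ras pathway inhibitor genes Spry1, Spry2 and Spred1. All 10 members were found among 22120 gene symbols shared by both deposited tables, and 9 of them were among the 10587 genes tested. Sorted naive T cells of C57BL/6 mice, labelled either WT or MSC KO (called knockout-labelled below), had spent 3 days in TGF-beta (2 ng/ml) over coated anti-CD3 and anti-CD28 (1 µg/ml). MSC is musculin, a DNA-binding factor of the helix-loop-helix class, and Msc is its gene. The labels used here name neither the age nor the allele of the mice, nor do they say if replicates are different animals or cultures, so that p-values measure only the spread between these libraries, which may be technical. Each group had 2 libraries, and each deposited table paired WT 1 with MSC KO 1 or WT 2 with MSC KO 2. Levels are in FPKM, which divides fragments by transcript length and library size, so that levels of different genes can be set side by side.

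Signals from the T cell receptor and from CD28 run through Ras to the kinase ERK, and in parallel to the stress-activated kinases JNK and p38. A MAP kinase is active only while both a threonine and a tyrosine in its activation loop carry phosphate, and dual-specificity phosphatases remove both. Dusp1, Dusp2 and Dusp4 encode nuclear enzymes that are induced soon after stimulation and act on several MAP kinases. Dusp5 (nuclear) and Dusp6 (cytoplasmic) encode enzymes selective for ERK, and Dusp10 and Dusp16 encode enzymes that prefer JNK and p38. Sprouty proteins and Spred1 act higher up, on Ras and Raf, and Spred1 does so by bringing the Ras-inactivating protein neurofibromin to the membrane. Many of these genes are themselves switched on by the pathway they restrain and serve as feedback brakes.

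Promoter windows of the 250 bases before each start were read from RefSeq (build GRCm38.p6) for 9 of the 10 members. They were searched on both strands for 10 motifs. Dusp4 had no window there and was not searched. The letters were TGACGTCA (cyclic AMP response element, CRE), its core TGACG, the AP-1 site TGANTCA, the site CCGGAAG (ETS), GCGTGGGCG (EGR), GGAAAAT (NFAT), and the E boxes CACGTG and CAGCTG. The NF-kappaB motif and the CArG box, which serum response factor binds, are given by name. At least 1 match was present in 4 of the 9 members, Dusp1, Dusp2, Dusp5 and Dusp16, against 45.6% of all 32851 windows. Each CRE also counts as matches of its core. The windows of Dusp5 and Dusp1 are shown because these genes, one with the same difference from WT in both tables and the other with opposite differences, had the most matches. Capitals mark the matches.
Dusp5, chr19:53529035-53529114, plus strand: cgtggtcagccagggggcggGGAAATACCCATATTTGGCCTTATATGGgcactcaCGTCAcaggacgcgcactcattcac
Dusp1, chr17:26508583-26508682, minus strand: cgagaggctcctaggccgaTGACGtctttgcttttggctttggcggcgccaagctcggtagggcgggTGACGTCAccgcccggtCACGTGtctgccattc
In Dusp5, 2 CArG boxes, CCATATTTGG and CCTTATATGG, lay side by side from 82 to 63 bases before the start. The first overlapped an NF-kappaB match, GGAAATACCC (1.41% of all windows), and a CRE core followed downstream. Of all windows 1.47% held a CArG box, and 6 windows (0.0183%), of 5 genes, held at least 2. Among those 5 genes Dusp5 and Srf, which encodes serum response factor itself, were the ones tested. Srf had 18.1 and 18 FPKM in the WT pair, 24 FPKM in the library labelled MSC KO 1 and 17.7 FPKM in the other. In Dusp1, a full CRE, found in 1.55% of windows, lay upstream of a CACGTG E box (6.02%), and a separate CRE core (17.8%) stood further up. The single match in Dusp2 was a CACGTG E box and that in Dusp16 a CRE core. AP-1, ETS, EGR, NFAT and the CAGCTG E box had no match in the 9 searched members. They were in 6.75%, 6.91%, 0.536%, 4.16% and 13% of all windows, in that order. These matches describe letters in a window and not binding.

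Msc itself was higher in libraries labelled MSC KO, at 0.331 and 0.939 FPKM, than in those labelled WT, at 0.0243 and 0.0178 FPKM. This went against the labels, but every value was under 1 FPKM, the mean below which genes were not compared by limma. Of the authors' deposited tables, the first marks Msc as not tested and the second gives it a q-value of 0.999. Whether the labels are correct was not tested, so every direction below is for the libraries as labelled. Foxp3, which defines regulatory T cells, had 62.8 and 66 FPKM in the WT pair but 2.97 and 7.05 FPKM in the knockout-labelled pair. The 13 CD4 T cell genes in the tables, Cd3e and Cd4 among them, summed to 2375 and 2455 FPKM in the WT pair and 2606 and 2336 FPKM in the knockout-labelled pair. B cell genes (10 in the tables) summed to 7.95 and 7.63 against 7.65 and 5.73 FPKM, most of it Cd79b, and 11 myeloid genes to 1.26 and 0.467 against 0.918 and 1.21 FPKM, with S100a8 and S100a9 at 0. For 7 genes of CD8 T cells and related cells the sums were 16 and 17.3 against 12.2 and 21.5 FPKM, most of it Cd8b1, with Ncr1 at 0. Of the 3 tested among these, Cd8a (1.58 and 1.90 FPKM in WT, then 0.571 and 0.658 FPKM) and Klrd1 (4.52 and 5.56, then 2.73 and 1.66 FPKM) were lower in both tables and did not pass. Estimated depth was 25500000 to 35000000 fragments per library. In bulk RNA, fewer cells of a type and less RNA per cell cannot be told apart.

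In WT cells the phosphatase transcripts were led by Dusp4, at 158 and 161 FPKM, above 94.3% of the tested genes. Dusp2 followed at 54.9 and 56 FPKM and Dusp5 at 47.9 and 47.6 FPKM. The other 7 genes lay far below these 3. Dusp1 was at 9.33 and 9.20 FPKM, Spry1 at 7.83 and 8.60 FPKM and Dusp6 at 7.05 and 6.77 FPKM. Spred1 (5.69 and 5.25 FPKM) and Dusp10 (5.28 and 5.58 FPKM) swapped order between the WT libraries and could not be ordered. Dusp16 stood at 1.55 and 1.86 FPKM and Spry2 last, at 0.431 and 0.300 FPKM. All other neighbours in this order did not overlap between WT libraries. The library SD in WT was between 0.0909 FPKM, for Dusp1, and 1.98 FPKM, for Dusp4.

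**Figure D1:**
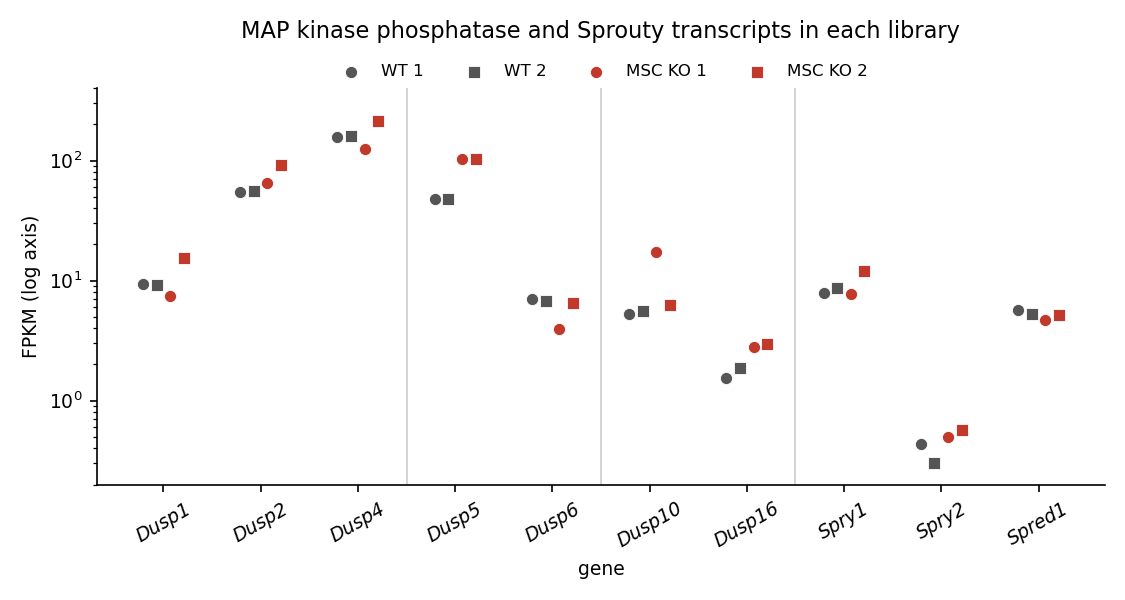
Level of each of the 10 genes in FPKM (log axis) in each library, with circles for replicate 1, squares for replicate 2, grey for WT and red for knockout-labelled, and with lines separating the inducible nuclear, ERK-selective and JNK/p38 phosphatases and the Sprouty group. The WT points of a gene nearly coincide, except for Spry2 and, less so, Dusp16. The red points of Dusp5 coincide at about 103 FPKM, and those of Dusp10 lie at 17.3 and 6.30 FPKM.

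The design compares induced regulatory T cells of mice labelled MSC KO with those labelled WT. Of the 9 tested members, 4 were higher in both tables in the knockout-labelled library (Dusp2, Dusp5, Dusp10 and Dusp16), 2 were lower in both (Dusp6 and Spred1) and 3 had opposite signs (Dusp1, Dusp4 and Spry1). Over all tested genes 31.2% were higher in both, 37.5% lower in both and 30.9% of opposite sign, so that the members' counts were near the background. The median difference of the tested members on the log2(FPKM + 1) scale was 0.21, against -0.02 over all tested genes. The members' median was -0.01 in the first table but 0.43 in the second, with -0.00236 and -0.04 over all genes. With the table as block, 0 members passed an adjusted p of 0.05, by limma, against 0.00945% of the tested genes (1 gene, the small RNA gene Rnu73b). At an unadjusted p under 0.05 there were 3 members, Dusp2, Dusp5 and Dusp16, all higher, where 20.4% of all tested genes reached that level and 9.21% were higher. In the authors' deposited table of each pair, a test of 1 library against 1, no member had a q-value under 0.05, against 0.652% and 0.547% of the tested genes. The authors' deposited p-value was under 0.05 for Dusp5 and Dusp10 in the first pair and Dusp5 in the second, where 5.31% and 4.61% of the tested genes had one. Both knockout-labelled libraries lay above both WT libraries for the same 4 genes and below them for Dusp6 and Spred1, where 26.6% and 32.5% of all tested genes did so.

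**Figure D2:**
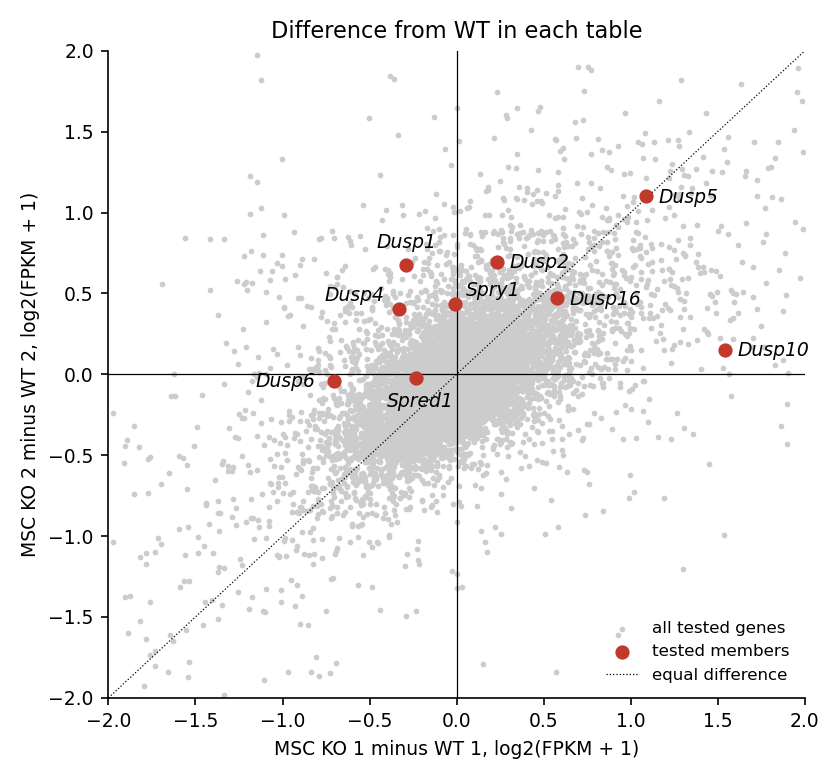
Difference of the knockout-labelled library from WT on the log2(FPKM + 1) scale in the first table (x axis) and the second (y axis), with the 9 tested members in red, all tested genes in grey and a dotted line where both differences are equal (233 genes beyond 2 in either table are not drawn). Dusp5 lies on the dotted line at 1.09 and 1.10, while Dusp10 lies near the x axis and Dusp1 and Dusp4 on opposite sides of 0 in the 2 tables.

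Dusp5, whose product removes phosphate from ERK in the nucleus, had the difference most equal between tables of all 9 tested members. It lies on chromosome 19 (mm9, 53603117 to 53616908 in the first table). Its level was 47.9 FPKM in WT 1, 47.6 FPKM in WT 2, and 103 FPKM in each knockout-labelled library, where the SD was 0.117 FPKM. Both knockout-labelled libraries were thus high, with no overlap, at 2.15 and 2.17 times WT. From about 3022 and 7151 fragments in the first table and 4123 and 8473 in the second, the exact Clopper-Pearson 95% intervals of these ratios were 2.06 to 2.24 and 2.09 to 2.25, for counting error only. Dusp5 was the one member at least 2-fold higher in both tables on the log2(FPKM + 1) scale, which 1.32% of the tested genes were, while no member was 2-fold lower in both (0.812% of the tested genes). Its difference was 1.09 ± 0.09 (SE), with an adjusted p of 0.115 by limma. It did not pass, although 0.52% of the tested genes had a smaller unadjusted p (its own was 0.000661) and 125 had a larger positive difference in both tables. With no replicate block it passed (adjusted p = 0.027 by limma, where 1.45% of the tested genes passed). Over the alternatives with all 4 libraries its adjusted p ranged from 0.027 to 0.207 (limma). Without 1 library, in fits with no block, its difference ranged from 1.089 to 1.099. The authors' deposited table gave Dusp5 q-values of 0.23 and 0.183.

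Dusp6, the cytoplasmic phosphatase of ERK (chromosome 10, mm9, 98725864 to 98730123), was below WT, mostly in 1 library. It was at 7.05 and 6.77 FPKM in WT, at 3.95 FPKM in the library labelled MSC KO 1 and at 6.57 FPKM in that labelled MSC KO 2. The first was low, at 0.56 times its WT library, and the second was at 0.97 times. The difference did not pass (-0.37 ± 0.20, adjusted p = 0.392, limma). It was -0.68 without MSC KO 2 and -0.06 without MSC KO 1, in fits with no block. Dusp5 stood at 6.80 and 7.03 times the FPKM of Dusp6 in the WT pair, and at 26.1 and 15.7 times it in the knockout-labelled pair.

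The inducible nuclear phosphatases were the most abundant group, and they were higher in MSC KO 2 than in MSC KO 1. Dusp4, which acts on ERK and JNK, lies on chromosome 8 (mm9, 35869579 to 35885010 in the first table and 35870319 to 35885008 in the second). Its levels in the 2 tables thus rest on different spans. They were 158 and 161 FPKM in WT, 126 FPKM in the library labelled MSC KO 1 and 213 FPKM in that labelled MSC KO 2. One knockout-labelled library was thus below both WT libraries and the other above them. The counting intervals of the ratios, 0.773 to 0.816 in the first table and 1.3 to 1.35 in the second (exact Clopper-Pearson 95%), did not overlap. The difference over both tables was 0.04 ± 0.22, with an interval of -0.62 to 0.69. Left with 1 knockout-labelled library and no block, Dusp4 passed by limma in opposite directions, at 0.41 without MSC KO 1 (adjusted p = 0.0239) and -0.34 without MSC KO 2 (adjusted p = 0.0215). Those fits passed 21.6% and 25.2% of all tested genes, and they take the lone library to vary like the WT group.

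Dusp1, an early stress-responsive phosphatase of p38, JNK and ERK (chromosome 17, mm9, 26642535 to 26645417), followed the same order. Its WT values were 9.33 and 9.20 FPKM, while the library labelled MSC KO 1 had 7.44 FPKM and that labelled MSC KO 2 had 15.3 FPKM. Its difference of -0.29 in the first table, against 0.68 in the second, did not pass (0.19 ± 0.28, adjusted p = 0.727, limma). It was 0.67 without MSC KO 1 and had the opposite sign without MSC KO 2 (-0.28), in fits with no block. Genes that respond to cell handling were higher on balance in both knockout-labelled libraries. Of 18 such genes tested, 11 were higher and 1 lower in both tables, and 6 had opposite signs. Over all tested genes 31.2% were higher and 37.5% lower in both. By limma 0 passed, with 7 higher and 0 lower at an unadjusted p under 0.05, against 9.21% and 11.2% of all tested genes. Their median differences were 0.35 (first table) and 0.25 (second). Atf3, a stress-induced factor, had 31.5 and 20.6 FPKM there against 6.83 and 6.79 FPKM in WT, and the chaperone gene Hsph1 had 30 and 35.3 FPKM against 19 and 20 FPKM. Fos, an immediate early factor, was at 4.04 and 1.82 FPKM in the knockout-labelled pair against 0.819 and 1.02 FPKM in WT. The part of handling in the Dusp1 values was not tested.

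Dusp2, a phosphatase of activated lymphocytes (chromosome 2, mm9, 127161894 to 127164113), was above WT in both tables. Its WT values were 54.9 and 56 FPKM, while the library labelled MSC KO 1 had 64.8 FPKM and that labelled MSC KO 2 had 91.1 FPKM. The groups did not overlap, and the ratios were 1.18 and 1.63. Its difference of 0.46 ± 0.15 did not pass (unadjusted p = 0.049, adjusted p = 0.244, limma). Without MSC KO 1 it was 0.71 and without MSC KO 2 0.22, in fits with no block.

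Of the phosphatases that prefer JNK and p38, Dusp10 had the largest difference in any table and Dusp16 a small one in both. Dusp10 (chromosome 1, mm9, 185858339 to 185899515) was at 5.28 and 5.58 FPKM in WT. It was at 17.3 FPKM in the library labelled MSC KO 1, 3.27 times WT, and at 6.30 FPKM in that labelled MSC KO 2, 1.13 times WT. The high value was thus in 1 library, and the difference did not pass (0.85 ± 0.39, adjusted p = 0.332, limma). It was 1.51 without MSC KO 2 and 0.18 without MSC KO 1, both with no block. In the authors' deposited table Dusp10 had a p-value of 0.00315 and a q-value of 0.188 in the first pair, and a q-value of 0.999 in the second.

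Dusp16 (chromosome 6, mm9, 134665490 to 134742646) was at 1.55 and 1.86 FPKM in WT and at 2.80 and 2.96 FPKM in the knockout-labelled pair. Both of these were above both WT libraries, at 1.8 and 1.59 times WT. The difference was 0.52 ± 0.14 (interval 0.11 to 0.93, unadjusted p = 0.0257) and did not pass over all genes (adjusted p = 0.200, limma). After Dusp5 it had the largest difference in the table where its difference was smaller, 0.47. At a pseudocount of 0.1, which compresses low genes less, its difference was 0.73.

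Of the Sprouty and Spred genes, Spry1 and Spry2 lay above WT in the second table, and Spry2 also slightly in the first. Spred1 lay slightly below WT, at 0.82 times WT in the first table and 0.98 times in the second. Spry1, a feedback inhibitor of Ras signalling in T cells (chromosome 3, mm9, 37538871 to 37543521), was at 7.83 and 8.60 FPKM in WT and at 7.78 and 12 FPKM in the knockout-labelled pair. It was level with WT in the first table and 1.39 times WT in the second (0.21 ± 0.15, adjusted p = 0.482, limma). Its difference was 0.50 without MSC KO 1 and -0.07 without MSC KO 2, in limma fits with no block. Spred1 (chromosome 2, mm9, 116946831 to 117005877 in the first table) had 5.69 and 5.25 FPKM in the WT pair, then 4.69 and 5.15 FPKM in the knockout-labelled pair. Its values lay within 1 FPKM of each other, and its difference had an interval of -0.47 to 0.22 on the log2 scale. Spry2 (chromosome 14, mm9, 106291163 to 106296036), a relative of Spry1, stayed under the filter of a mean of 1 FPKM, at 0.431 and 0.300 FPKM in the WT pair and 0.502 and 0.570 FPKM in the knockout-labelled pair. They rest on an estimated 23 and 22 fragments in WT and 29 and 40 in the knockout-labelled libraries. The ratio was 1.15 in the first table (0.64 to 2.07, exact Clopper-Pearson 95% interval) and 1.92 in the second (1.11 to 3.39). With no filter on low values its difference was 0.17 ± 0.08 and did not pass (adjusted p = 0.436, limma).

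The WT libraries lay close together for every tested member, while the knockout-labelled libraries did so only for Dusp5, Dusp16 and Spred1. The gap between WT 1 and WT 2 was 0.01 to 0.16 on the log2(FPKM + 1) scale, with a median of 0.05 (0.07 over all tested genes). Between MSC KO 1 and MSC KO 2 the gap ran from 0.00229, for Dusp5, to 1.32, for Dusp10, with a median of 0.56 (0.17 over all tested genes). Gaps of at least 0.5 between the knockout-labelled libraries were present in 5 of the 9 tested members (Dusp1, Dusp4, Dusp6, Dusp10 and Spry1), against 12.7% of all tested genes. None of the 9 had such a gap between WT libraries (1.96% of all tested genes). The threshold of 0.5 was chosen after the values were seen, and libraries of different tables may have been scaled apart. The directions differed by gene, with Dusp10 higher in MSC KO 1, and Dusp1, Dusp4, Dusp6 and Spry1 higher in MSC KO 2.

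**Figure D3:**
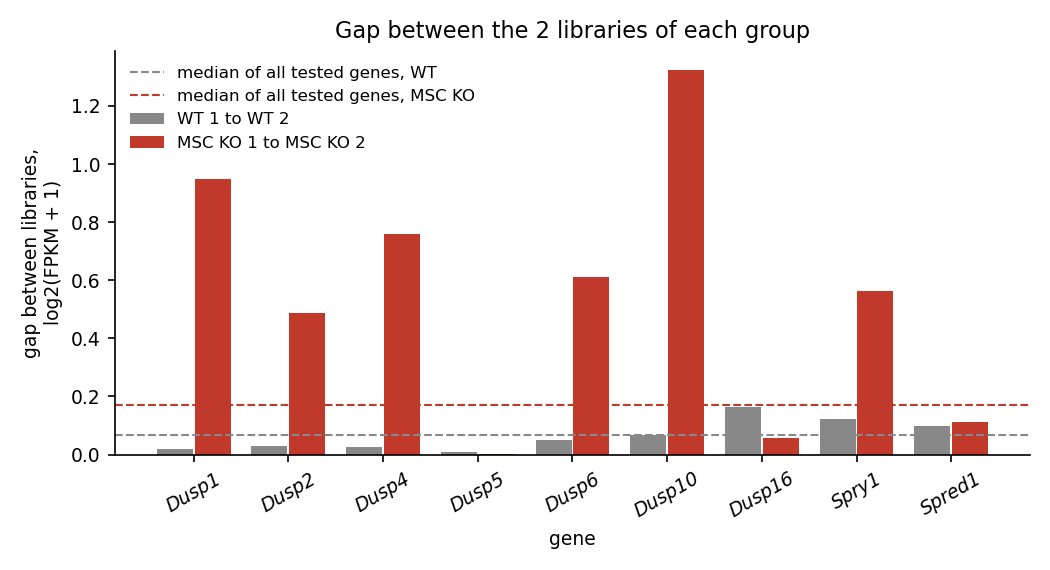
Gap between the 2 libraries of a group on the log2(FPKM + 1) scale for the 9 tested members, grey bars for WT and red bars for knockout-labelled, with dashed lines at the medians of all tested genes (0.07 and 0.17). Red bars reach 0.95 for Dusp1 and 1.32 for Dusp10 and are near 0 for Dusp5.

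Dusp5 held a larger share of the phosphatase transcripts in both knockout-labelled libraries than in WT. The 7 phosphatase genes summed to 284 and 288 FPKM in WT and to 325 and 439 FPKM in the knockout-labelled pair. Dusp5 made up 16.9% and 16.5% of that sum in WT, and 31.7% and 23.5% in the knockout-labelled libraries. Dusp4 made up 55.7% and 55.9% in WT, and 38.7% and 48.6% there. The share of Dusp2 was between 19.3% and 20.8% in all 4 libraries. Dusp10 and Dusp16 together held 2.41% and 2.58% in WT, 6.18% in the library labelled MSC KO 1 and 2.11% in the other, so that their share was high in 1 library. These shares are a description with no test.

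**Figure D4:**
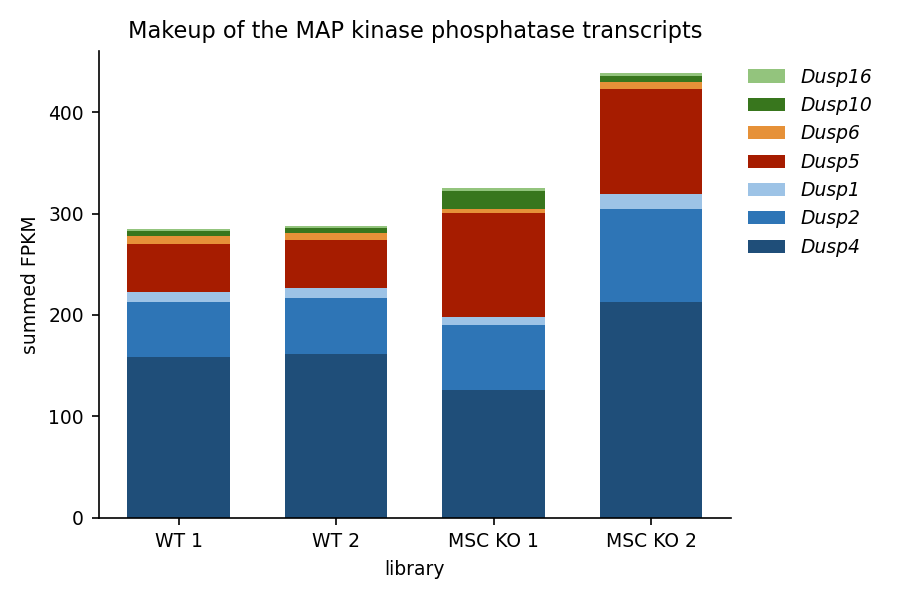
Summed FPKM of the 7 phosphatase genes in each library, stacked by gene. The Dusp5 part is 103 FPKM in both knockout-labelled libraries against 47.9 and 47.6 FPKM in WT, and the total is highest, at 439 FPKM, in MSC KO 2.

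Other genes of the pathway were read from lists chosen beside the members, and in each list 0 genes passed by limma over all genes. List medians below stand beside -0.02 over all tested genes, and counts at an unadjusted p under 0.05 beside 9.21% higher and 11.2% lower. Of the other dual-specificity phosphatase genes, 14 of 19 were tested, and 8 were higher and 2 lower in both tables (median 0.08), with 2 higher and 0 lower at an unadjusted p under 0.05. Dusp3, a small phosphatase of ERK and JNK, was at 2.98 and 1.95 FPKM against WT values of 1.12 and 0.905 FPKM (adjusted p = 0.176, limma). Dusp14 was at 8.80 and 16.1 FPKM against 7.44 and 8.28 FPKM, high in MSC KO 2, as Dusp1, Dusp2 and Dusp4 were. Spred2, the relative of Spred1, was lower in both tables, at 6.79 and 6.45 FPKM against 9.21 and 9.83 FPKM (-0.46 ± 0.10, adjusted p = 0.175, limma). Among other phosphatases of MAP kinases, 8 of 10 were tested, 1 was higher and 4 were lower in both tables (median -0.03), with 0 higher and 1 lower at that level. Ptpn7, a tyrosine phosphatase of ERK and p38 in blood cells, was at 37.9 and 41.1 FPKM against WT values of 50.8 and 53.7 FPKM (adjusted p = 0.18, limma).

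Genes that set Ras activity were lower more often than higher, with 9 lower and 4 higher in both tables among 18 tested (median -0.06), where 37.5% and 31.2% of all tested genes were lower and higher in both. There were 5 lower and 2 higher at an unadjusted p under 0.05. Rasgrp2, a Ras-family activator, was at 2.97 and 2.91 FPKM against WT values of 7.06 and 7.53 FPKM. The Ras-inactivating Rasa1 (11.5 and 13.1 against 21.6 and 22.3 FPKM) and its relative Rasa3 (8.71 and 7.12 against 15.6 and 15.4 FPKM) were lower too, and Cblb, a ubiquitin ligase that restrains T cell activation, was higher (26.6 and 30.3 against 17.1 and 17.7 FPKM). Their adjusted p values lay between 0.121 and 0.14 (limma). The ERK cascade itself was evenly split, with 6 of 15 tested genes higher and 6 lower in both tables (median 0.07), and 1 each at that level. Its scaffold gene Ksr1 had 7.75 and 7.82 FPKM, above its WT values of 4.22 and 4.74 FPKM. In the JNK and p38 cascades 8 of 19 were higher and 6 lower in both tables (median 0.04), with 3 higher and 1 lower at that level. Rps6ka4, a kinase activated by p38 and ERK, had 413 and 120 FPKM against 20.2 and 18.2 FPKM, high in both knockout-labelled libraries and most in MSC KO 1 (3.47 ± 0.45, adjusted p = 0.133, limma). Gadd45b, which binds a kinase upstream of p38, was at 73.2 and 95 FPKM against 32.2 and 28.7 FPKM (1.43 ± 0.17, adjusted p = 0.131, limma). Its relative Gadd45g was at 65.6 and 32.5 FPKM against 20.3 and 22.5 FPKM, higher in MSC KO 1 than in MSC KO 2, the order of Dusp10.

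Transcripts listed as responding to ERK stood above WT on balance, while ERK activity itself was not measured. Of 21 tested, 13 were higher and 2 lower in both tables, and 6 had opposite signs. Over all tested genes 31.2% were higher and 37.5% lower in both. The median difference of the 21 was 0.22, with 0.23 and 0.28 in the 2 tables. At an unadjusted p under 0.05, 9 were higher and 0 lower. Il2, the T cell growth factor gene, had 33.9 and 26.7 FPKM where WT had 4.24 and 4.29 FPKM (2.56 ± 0.13, adjusted p = 0.1, limma), and Fosl2, an AP-1 factor gene, had 29.1 and 16.9 against 4.64 and 4.76 FPKM. Ier3, an immediate early gene, was at 91.1 and 58.2 against 35.3 and 32 FPKM. Egr2, an early response factor, was at 13.8 and 6.49 against 3.32 and 3.11 FPKM. The handling genes described beside Dusp1 were higher too, and Fos, Fosb, Jun, Junb, Ier2 and Ier3 are in both lists, so the part of handling here was not tested. Some genes were low in 1 library only, as Dusp6 was. Phlda1 was at 3.73 FPKM in the library labelled MSC KO 1 and at 20.5 FPKM in that labelled MSC KO 2, against 19.5 and 18.2 FPKM in WT. Jun had 17.3 and 30.3 FPKM (WT 32.6 and 30.7 FPKM), and the growth factor gene Hbegf 1.35 and 3.09 FPKM (WT 3.12 and 3.02 FPKM). These 3 genes were named after their values were seen.

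**Figure D5:**
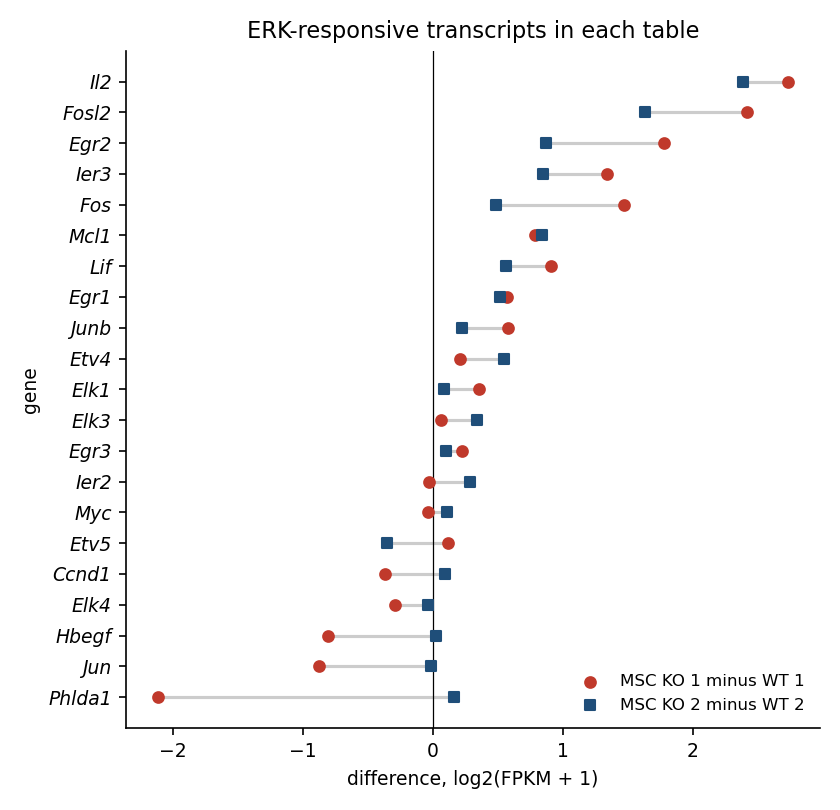
Difference from WT on the log2(FPKM + 1) scale for the 21 tested ERK-responsive transcripts, red circles for the first table and blue squares for the second, in the order of their mean difference. Most lie right of 0 in both tables, with Il2 at 2.74 and 2.39, and Phlda1 lies at -2.12 in the first table but at 0.16 in the second.

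The genes with the pattern most like Dusp5 were Ankrd46, Obfc2a and Traf1. Likeness was the Euclidean distance over the 4 libraries of log2(FPKM + 1) less the gene's WT mean, among 2370 genes with a WT level within 2-fold of Dusp5. Ankrd46, an ankyrin repeat gene, was at 38.4 and 40 FPKM in WT and at 89.3 and 79.1 FPKM in the knockout-labelled pair (distance 0.134). Obfc2a was at 30.3 and 28.6 FPKM and then 60.1 and 68.7 FPKM (0.142), and Traf1, an adaptor of tumour necrosis factor receptors, at 41.8 and 42.3 FPKM and then 86.5 and 78.5 FPKM (0.222). The same rule, applied to the member below WT in both tables whose smaller difference was largest, took 3253 genes near Dusp6. It gave Bcl7a (distance 0.0265), Slamf6 (0.0434), a receptor of the SLAM family, and Pvrl2 (0.0516). Slamf6 had WT values of 7.84 and 7.61 FPKM, with 4.55 FPKM in the library labelled MSC KO 1 and 7.14 FPKM in the other.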

How the data were processed

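RNA-seq of 4 libraries, 2 WT and 2 MSC KO, is held in 2 tables that the authors deposited, 1 for each replicate number. Reads were aligned to mm9 with TopHat, per the submitters' processing notes; for its version and the annotation, nothing is given in the sources used here. No label names a unit: FPKM was inferred for the values the authors deposited, from the tables' layout. Each row also has the authors' deposited p-value and q-value, from 1 library against 1. Rows without a symbol (1925 and 2325) were left out, and a repeated symbol was represented by its highest row. The rows left out held 49.9% and 52.2% of the summed FPKM in the WT pair, and 54.1% and 53.2% in the knockout-labelled pair. Depth was estimated from the smallest step of low values, with transcript lengths from GENCODE matched by name. Genes averaging at least 1 FPKM over the libraries were compared as log2(FPKM + 1), which understates differences of low genes, by limma 3.58.1 in R 4.3.3, two-sided, with the table as a block, a trended prior and Benjamini-Hochberg adjustment over all genes (threshold 0.05). There was 1 residual degree of freedom. Tables may differ in scaling, hence the block. The fit was tested on simulated data. No table of proteins was used.

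The members and lists were chosen with earlier results of these data known. Named genes were the members, Msc, up to 4 genes per list whose lesser difference of the 2 tables, of equal sign, was largest, and the 3 genes most like 2 members. Some of these are not printed. Cd3e, Cd4, Srf, Rnu73b, Jun, Hbegf, Phlda1, Fosb, Junb, Ier2, Cd8b1, Ncr1, S100a8 and S100a9 are outside that rule.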

Additional observations from a re-analysis of the deposited data

Results flagged for a closer look

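The tables hold 14 transcribed intervals without a gene symbol within 20 kb of Dusp2 and Dusp4, a signal outside the gene comparison. Of these, 9 were at least 2 times WT in the MSC KO-labelled library, and 2 near Dusp4 in the first table were lower by more than that. The share of all rows without a symbol (1925 and 2325) that differ as much was not computed. The counts are therefore not read as particular to these genes. The lower ones were the most abundant interval, from 35861221 to 35861298, at 559 FPKM in WT 1 and 169 FPKM in the library labelled MSC KO 1, and that from 35859377 to 35860165, at 26.4 and 10.2 FPKM. Before the start of Dusp2 (chromosome 2, mm9), 6 higher intervals stood in the second table and none in the first, where no interval without a symbol was listed within 20 kb. In the library labelled MSC KO 2, which also had the most Dusp2, the interval from 127148325 to 127148531 was at 9.15 FPKM and that from 127148779 to 127148963 at 12.3 FPKM, both listed at 0 in WT 2. The other 4, between 127149202 and 127159735, had 1.28, 3.53, 4.38 and 1.62 FPKM there, where WT 2 had 0.251, 0.260, 0.221 and 0.468 FPKM. Before the start of Dusp4 (chromosome 8, mm9), the interval from 35868895 to 35869237 was at 5.89 FPKM in MSC KO 1 against 2.25 FPKM in WT 1. Near the same gene, the intervals from 35863648 to 35863792 and from 35869530 to 35870225 had 29.7 and 2.87 FPKM in the library labelled MSC KO 2, and WT 2 had 11.4 and 1.09 FPKM. The latter interval lay mostly inside the Dusp4 span of the first table, which starts at 35869579. In the second table Dusp4 starts at 35870319, so this interval may be part of the gene. In the authors' deposited tables none of the 14 had a q-value under 0.05, the lowest being 0.236. Intervals were assembled apart in each table, and their difference from WT has no replicate check.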

How the results depend on the processing

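With all 4 libraries kept, 87 of 89 recomputed member differences kept their direction and their side of the threshold. The exceptions were Dusp5, which passed with no replicate block (1.09, adjusted p = 0.027, limma), and Dusp4, at -0.00574 when libraries were rescaled to equal sums. Dropping the block, the trend or small RNA symbols, changing the filter or summing repeated rows left a member's difference as it was. Direction could thus change only with the pseudocount, rescaling, centring or quantile normalization. With all 4 libraries, 1 member thus passed with no replicate block, where 1.45% of the tested genes passed, and none passed otherwise. Some members also passed without MSC KO 1 or without MSC KO 2, as given for Dusp4. Fits without 1 library take the lone library of a group to vary like the other group. Without 1 library, Dusp1 ranged from -0.28 to 0.67, Dusp4 from -0.34 to 0.41 and Spry1 from -0.0685 to 0.50. The number of genes called was 7 with each library rescaled, 3 at a mean of at least 5 FPKM, 153 with no replicate block, 23 with small RNA symbols left out, and 0 with no filter, with quantile normalization or with a prior without trend. It ranged from 0 to 2665 without 1 library, being highest without MSC KO 2. Same-numbered libraries shared little, with a correlation across genes of 0.0589 between the deviations of WT 1 and MSC KO 1 from their group means. Table and pairing share the same numbers, so this value cannot decide which of them the block stands for. Depth limits Spry2, with an estimated 22 to 40 fragments.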
